A study of Mus musculus with 12 samples.

Results

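The cap of an mRNA is built on nascent RNA by a short series of enzymes. RNGTT trims the triphosphate end and adds the guanosine, RNMT with its activating subunit RAM (gene *Ramac*) methylates that guanosine to give the m7G cap, CMTR1 and CMTR2 methylate the ribose of the first and of the next transcribed base, and PCIF1 adds a methyl group to the base where the transcript starts with adenosine. In the nucleus the finished cap is held by the cap-binding complex of NCBP2, which contacts the cap, and NCBP1, its large adaptor subunit, and NCBP3 is a further cap-binding protein described as an alternative partner of NCBP1. The study proposes that T cells need more caps once they are activated, because they then make more RNA and protein.

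The 9 genes *Rngtt*, *Rnmt*, *Ramac* (listed by its older symbol Fam103a1 in the deposited table), *Cmtr1*, *Cmtr2*, *Pcif1*, *Ncbp1*, *Ncbp2* and *Ncbp3* were taken by symbol from the 49585 genes of the count files. Naive CD4 T cells from the lymph nodes of female mice were activated for 20 h on plates coated with anti-CD3 (5 ug/ml) and anti-CD28 (1 ug/ml) and given cycloheximide (0.1 mg/ml) for 1 min before lysis. Control mice were Rnmt fl/fl CD4cre - and *Rnmt* cKO mice were Rnmt fl/fl CD4cre +, so that both carried the floxed alleles and differed in Cre. Cre is driven by the CD4 promoter from the double positive stage in the thymus, so the deletion is older than the activation and also takes place in cells that become CD8 T cells. Total cytoplasmic RNA and ribosome-protected fragments (RPF, the stretches of mRNA covered by a ribosome) were sequenced in 3 libraries of each genotype, 12 in all. Reads on genes ranged from 15079703 to 22629563 in total RNA and from 4123271 (RPF of *Rnmt* cKO 3) to 10661356 in RPF. Levels are given as CPM, counts scaled to the TMM-adjusted library size, in the order of replicates 1, 2 and 3, and mean values are followed by the SD over 3 libraries. The labels give separate samples, but not whether the same number in total RNA and RPF marks the same animal.

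All 9 genes passed the filter on low counts, which asked for more than 1 CPM in 3 or more of 6 libraries, both in total RNA and in RPF. Limits of the counting touch 2 of them. For *Cmtr1*, 92.5% of the coding bases and 53.1% of the exon bases lie in exons of *Gm28043*, an annotated gene on the same strand. Where the annotation used for counting holds the same overlap, reads there belong to more than 1 gene and are left out. The *Cmtr1* values would then come from the rest of the transcript and be lower limits of its level. These shares are from the exons of GENCODE vM21. The reads were counted on vM12, whose exon overlap was not examined. For *Ramac*, the 357 coding bases are identical to the processed pseudogene *Gm9830* on chromosome 9, and *Olfr482* (1385 bases at 98.7% identity) and *Gm10767* (1359 bases at 96.2%) hold long copies as well. Reads that align equally well to a copy were not counted, so the values of *Ramac*, above all its footprints, are uncertain.

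The deleted gene was examined before the others. *Rnmt* (chromosome 18, 68300355 to 68324852, plus strand, GRCm38) was at 95.5, 94.1 and 94.3 CPM in the control total RNA libraries and at 29.3, 32.4 and 30.4 CPM in those of *Rnmt* cKO. In RPF it was at 104, 87.9 and 98.9 CPM in controls and at 10.5, 10.4 and 9.60 CPM in *Rnmt* cKO. Every *Rnmt* cKO library lay far below every control in both kinds, which matches the labels. The gene fell by 1.62 on the log2 scale in total RNA (SE 0.06, edgeR quasi-likelihood test with Benjamini-Hochberg adjustment over all genes tested, adjusted p = 5.8e-06), which left 32.5% of the control level. Footprints fell by 3.24 (SE 0.10, adjusted p = 4.8e-06), which left 10.5%. The change in translation efficiency (TE), which is the log2 change in RPF less that in total RNA, tested as an interaction of genotype and library kind, was -1.62 for *Rnmt* (SE 0.11, adjusted p = 3.2e-06). The RNA that remained therefore carried fewer footprints per read of RNA than in controls. The study describes a deletion of part of the gene, and the counts cover all of its exons, so reads from outside the deleted part are included. The share of footprints and of RNA reads in the deleted part was not examined. The TE value of *Rnmt* is therefore not shown to be a change in ribosome loading of the remaining RNA. Remaining *Rnmt* RNA from cells with an intact gene and from a shortened transcript cannot be told apart in these counts.

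**Figure D1:**
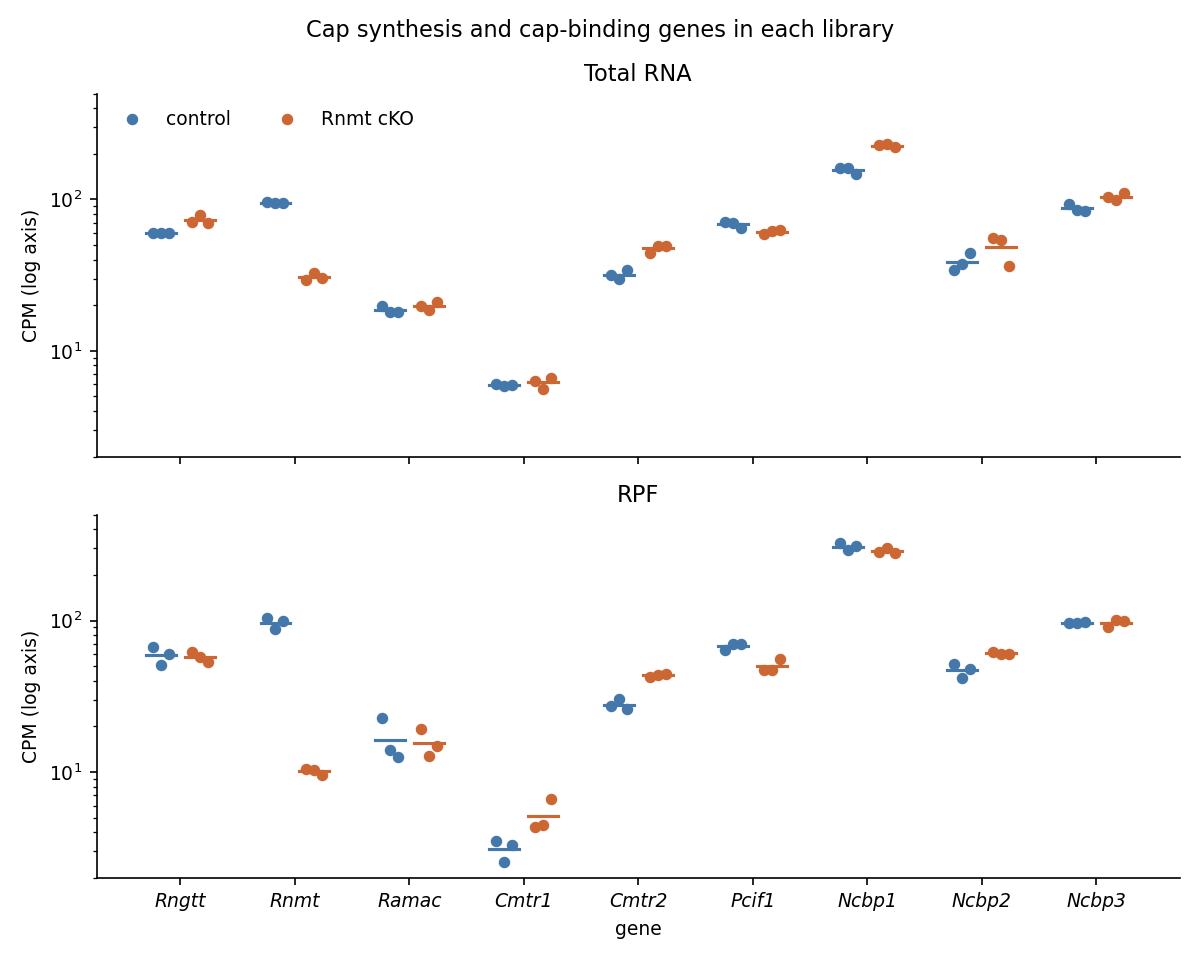
Level of each gene (CPM, log axis) in the total RNA libraries (top) and the RPF libraries (bottom) of control (blue) and *Rnmt* cKO (orange) cells. Points are single libraries in the order 1, 2, 3 and lines are means. *Rnmt* is the gene with the widest gap, at 94.6 against 30.7 CPM in total RNA and 97.0 against 10.2 CPM in RPF, and *Ncbp1* is raised in total RNA only, at 157 against 226 CPM.

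In total RNA, 5 of the 9 genes passed the test. *Rnmt* alone fell, where 28.0% of all 11519 genes tested fell, and 4 rose (*Rngtt*, *Cmtr2*, *Ncbp1* and *Ncbp3*), where 26.3% of all genes rose. The median log2 change of the 9 genes was 0.25, against -0.0037 over all genes tested. In RPF, *Rnmt* and *Pcif1* fell (15.7% of 11428 genes fell) and *Cmtr2* and *Ncbp2* rose (14.1% rose), and the median was -0.04 against 0.0080 over all genes. In TE, *Rnmt* and *Ncbp1* fell (6.57% of 10668 genes fell) and none of the 9 rose (3.24% of all genes rose), with a median of -0.25 against 0.04 over all genes. Of the 7 genes that did not pass in TE, *Rngtt*, *Cmtr1*, *Pcif1* and *Ncbp3* had an unadjusted p under 0.05 (0.029, 0.037, 0.020 and 0.016), and only *Cmtr1* among these had a TE value above 0. DESeq2 called 2 of the genes lower and 0 higher in TE, but gave no adjusted p for *Cmtr1*, which is left out of that count. CPM is relative to the RNA of each library, so fewer cells of a type and less RNA per cell cannot be told apart here. The study describes less mRNA per activated cell in *Rnmt* cKO than in controls. It adds that sequencing therefore makes rises look too large and falls too small, which applies to CPM. None of the 4 rises (*Rngtt*, *Cmtr2*, *Ncbp1* and *Ncbp3*) is shown by these counts to be a rise per cell.

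**Figure D2:**
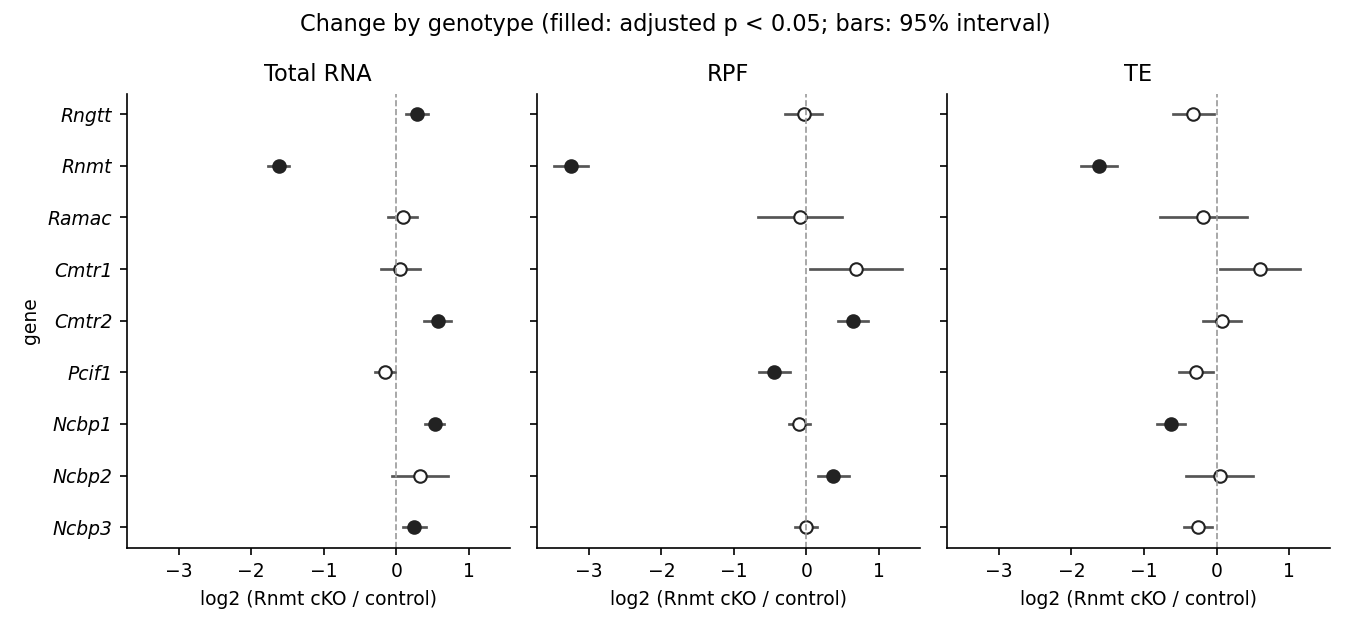
Log2 change of *Rnmt* cKO against control for the 9 genes, in panels for total RNA, RPF and TE, with 95% intervals from the edgeR fit and filled points for an adjusted p under 0.05. From left to right, *Ncbp1* lies at 0.53, -0.10 and -0.63 and *Cmtr2* at 0.57, 0.64 and 0.07.

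The capping enzyme was slightly higher in total RNA and level in footprints. *Rngtt* (chromosome 4, 33310311 to 33502614), which removes a phosphate and transfers GMP to the RNA end, was at 59.7, 59.9 and 59.5 CPM in control total RNA and at 70.4, 78.4 and 69.5 CPM in *Rnmt* cKO. The groups did not overlap, and the 3 controls hardly differed (SD 0.21 CPM). The gene rose by 0.28 on the log2 scale (SE 0.07, edgeR adjusted p = 0.0071). In RPF the controls, at 66.9, 50.5 and 60.4 CPM, enclosed the *Rnmt* cKO values of 61.9, 57.8 and 53.6 CPM. The log2 change in RPF was -0.04 (95% interval -0.29 to 0.22, edgeR adjusted p = 0.83) and the TE value was -0.32 (SE 0.13, adjusted p = 0.15).

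The counted RNA of the activating subunit of RNMT did not fall with that of *Rnmt*. *Ramac* (chromosome 7, 81762925 to 81769491) was at 19.6, 17.9 and 18.0 CPM in control total RNA and at 19.6, 18.5 and 21.0 CPM in *Rnmt* cKO. The groups overlapped, and the log2 change was 0.09 (95% interval -0.11 to 0.29, edgeR adjusted p = 0.40), an interval that does not reach the fall of *Rnmt*. In RPF it was at 22.7, 13.9 and 12.5 CPM in controls and at 19.2, 12.7 and 14.8 CPM in *Rnmt* cKO, from 60 to 242 counts a library, with a log2 change of -0.08 (95% interval -0.66 to 0.50, edgeR adjusted p = 0.83). That interval is wide, and without control 1 the RPF value was 0.23 and without *Rnmt* cKO 2 it was 0.06. Which parts of the transcript the counted reads cover was not examined, and these values say nothing of the amount of RAM protein. The study reports, from western blots in a separate experiment, that RAM protein was lower in activated *Rnmt* cKO CD4 T cells.

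The ribose methyltransferases differed in how much could be measured. *Cmtr2* (chromosome 8, 110215665 to 110224486), which acts on the base after the first, was at 31.9, 29.7 and 34.1 CPM in control total RNA and at 44.0, 49.1 and 49.1 CPM in *Rnmt* cKO. In RPF it was at 27.1, 30.3 and 26.1 CPM in controls and at 42.6, 43.6 and 44.3 CPM in *Rnmt* cKO. All *Rnmt* cKO libraries lay above all controls in both kinds. The gene rose by 0.57 in total RNA (SE 0.08, edgeR adjusted p = 6.6e-04) and by 0.64 in RPF (SE 0.09, adjusted p = 0.0016), to 149% and 156% of the control level. Its TE value was 0.07 (95% interval -0.18 to 0.33, adjusted p = 0.76), and *Cmtr2* was the only 1 of the 9 genes that passed as higher in both kinds. *Cmtr1* (chromosome 17, 29660595 to 29705979), which acts on the first base, was at 5.88 to 6.05 CPM in control total RNA and 5.62 to 6.61 CPM in *Rnmt* cKO, with overlapping groups and a log2 change of 0.05 (95% interval -0.22 to 0.32, edgeR adjusted p = 0.73). In RPF, counts of 37, 17 and 27 in controls and 37, 46 and 27 in *Rnmt* cKO stood for 3.47, 2.56 and 3.31 CPM and 4.33, 4.49 and 6.64 CPM. The groups did not overlap, yet the log2 change of 0.68 did not pass (SE 0.28, edgeR adjusted p = 0.099). The low counts and the overlap with *Gm28043* limit that comparison.

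*Pcif1* (chromosome 2, 164879304 to 164894454), the methyltransferase for a starting adenosine, was the only one of the 9 besides *Rnmt* that passed as lower in footprints. It was at 64.1, 69.5 and 69.9 CPM in control RPF and at 47.2, 47.4 and 56.1 CPM in *Rnmt* cKO. Every *Rnmt* cKO library was below every control, and *Rnmt* cKO 3 was the highest of its group. Footprints fell by 0.44 (SE 0.09, edgeR adjusted p = 0.0082), to 74.0% of control. In total RNA it was at 70.8, 69.5 and 64.8 CPM in controls and at 59.4, 61.4 and 62.9 CPM in *Rnmt* cKO, again without overlap. The log2 change of -0.16 there did not pass (SE 0.06, edgeR adjusted p = 0.059), and it did pass without control 3 (-0.20, adjusted p = 0.041). The TE value was -0.29 (SE 0.11, adjusted p = 0.12). The 3' exons overlap *Zfp335* on the other strand over 1107 exon bases, none of them coding.

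*Ncbp1* was the most abundant of the 9 genes and the only one besides *Rnmt* that passed in TE. *Ncbp1* (chromosome 4, 46138613 to 46172403) was at 162, 162 and 148 CPM in control total RNA and at 227, 231 and 221 CPM in *Rnmt* cKO. In RPF it was at 324, 292 and 309 CPM in controls and at 283, 301 and 279 CPM in *Rnmt* cKO. The groups were well apart in total RNA and overlapped in RPF. The gene rose by 0.53 in total RNA (SE 0.06, edgeR adjusted p = 1.9e-04), to 144% of control, while the log2 change in RPF was -0.10 (95% interval -0.24 to 0.04, adjusted p = 0.26). TE fell by 0.63 (SE 0.09, 95% interval -0.81 to -0.44, edgeR adjusted p = 5.7e-04). With each library left out in turn, the total RNA change stayed between 0.48 and 0.55 and the TE change between -0.69 and -0.58, and both passed each time.

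The calls of *Ncbp2* in RPF and of *Ncbp3* in total RNA were close to the threshold. *Ncbp2* (chromosome 16, 31948513 to 31961781), the subunit that contacts the cap, was at 34.3, 37.7 and 44.0 CPM in control total RNA and at 55.7, 54.0 and 36.2 CPM in *Rnmt* cKO. *Rnmt* cKO 3 lay among the controls, and the log2 change of 0.33 did not pass (SE 0.17, edgeR adjusted p = 0.14), whereas without that library it was 0.51 (adjusted p = 0.0051). In RPF it was at 51.9, 41.6 and 47.8 CPM in controls and at 62.4, 60.4 and 60.0 CPM in *Rnmt* cKO, with no overlap. It rose by 0.37 there (SE 0.09, edgeR adjusted p = 0.020), but did not pass without *Rnmt* cKO 1 (0.36, adjusted p = 0.061) or without *Rnmt* cKO 2 (0.38, adjusted p = 0.051). *Ncbp3* (chromosome 11, 73047783 to 73089317) was at 93.2, 85.4 and 83.6 CPM in control total RNA and at 104, 98.5 and 109 CPM in *Rnmt* cKO. It rose by 0.25 (SE 0.07, edgeR adjusted p = 0.014), with no overlap, and did not pass without control 2 (0.23, adjusted p = 0.058) or without control 3 (0.21, adjusted p = 0.050). Its footprints were at 97.0, 96.6 and 97.3 CPM in controls and at 90.8, 100.4 and 98.7 CPM in *Rnmt* cKO, a log2 change of -0.0061 (95% interval -0.16 to 0.14, edgeR adjusted p = 0.95).

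Counted over the genes, every *Rnmt* cKO library was below every control for 2 of the 9 in total RNA (32.3% of all genes tested) and above every control for 4 (30.0% of all genes). In RPF the same held for 2 (24.3%) and 3 (22.2%). With so few genes, nothing on the set as a whole is drawn from these counts.

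The ratio of footprints to RNA was lower in *Rnmt* cKO for *Rnmt* and *Ncbp1*, the genes that passed in TE. The log2 ratio of RPF CPM to total RNA CPM, taken for libraries of the same genotype and number, was 1.00, 0.85 and 1.06 for *Ncbp1* in controls and 0.32, 0.38 and 0.34 in *Rnmt* cKO. For *Rnmt* the ratio was 0.12, -0.10 and 0.07 in controls and -1.47, -1.64 and -1.66 in *Rnmt* cKO. The groups lay far apart for both genes, and the median over all 10668 genes was 0.18 in controls and 0.20 in *Rnmt* cKO. Footprints come from coding bases and RNA reads from whole exons, which are 2370 of 3010 bases for *Ncbp1*, 1395 of 5008 for *Rnmt* and 1845 of 12106 for *Ncbp3*. The ratio therefore also follows the coding share of a gene and gives no order between genes. For *Cmtr1* it was at -0.93 ± 0.21 (SD, n = 3) in controls. In GENCODE vM21, *Gm28043* overlaps a larger share of its coding bases than of its exon bases. Whether this lowers the ratio was not tested. In *Rnmt* cKO the ratio of *Cmtr1* was at -0.28 ± 0.27 (SD, n = 3), with every value above every control. The TE value of *Cmtr1* was 0.60 and did not pass (SE 0.26, edgeR adjusted p = 0.17).

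**Figure D3:**
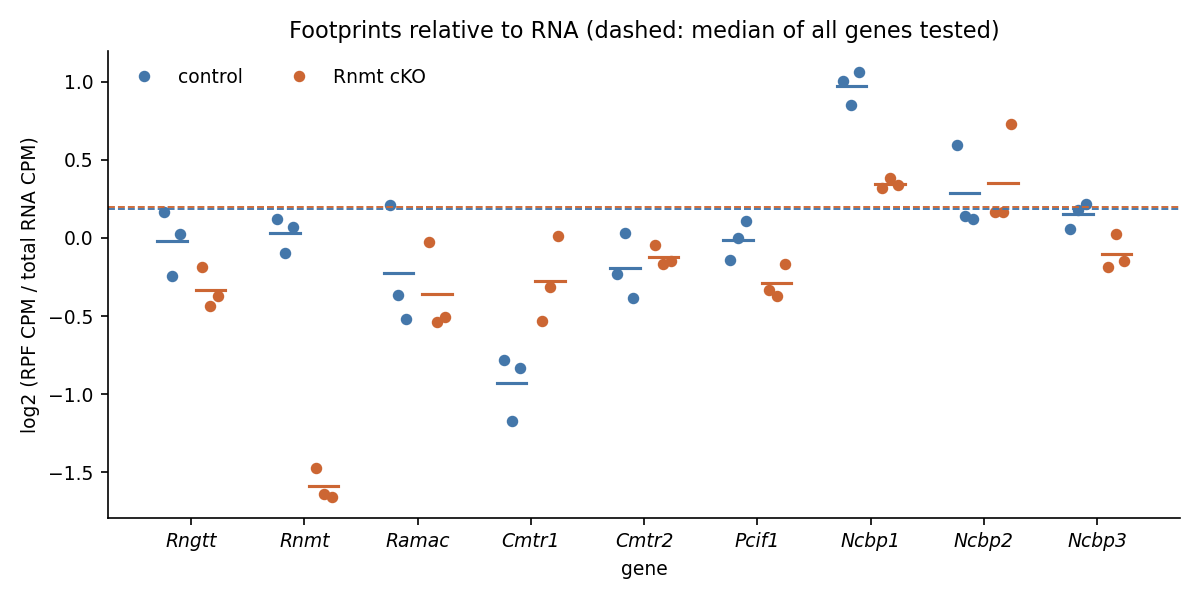
Log2 ratio of RPF CPM to total RNA CPM for the 9 genes in control (blue) and *Rnmt* cKO (orange) cells, with points for pairs of libraries of the same genotype and number, lines for means and dashed lines for the median of all genes tested (0.18 and 0.20). *Ncbp1* moves from a mean of 0.97 to 0.35 and *Rnmt* from 0.03 to -1.59.

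Levels between genes were compared as RPKM of total RNA, which is CPM divided by the kilobases of exon. In controls *Ncbp1* was highest at 52.1 ± 2.65 RPKM (SD, n = 3), followed by *Rnmt* at 18.9 ± 0.15 and *Ncbp2* at 17.6 ± 2.24, whose ranges overlapped. *Rngtt* followed at 14.4 ± 0.05, then *Pcif1* at 11.8 ± 0.55, *Cmtr2* at 8.99 ± 0.62 and *Ncbp3* at 7.22 ± 0.42. *Ramac*, at 12.1 ± 0.62, is not placed, because reads that align equally well to its copies were not counted. *Cmtr1*, at 0.94 ± 0.01, cannot be placed because most of its exon bases overlap *Gm28043* in GENCODE vM21 and may not have been countable. In *Rnmt* cKO, *Rnmt* was at 6.13 ± 0.31 RPKM, under every other gene but *Cmtr1*. *Cmtr2* was at 13.4 ± 0.83 RPKM there, and *Ramac*, again not placed, at 12.8 ± 0.84. The length is that of all annotated exons, which is 12106 bases for *Ncbp3*, and genes with exons not used in these cells are placed too low.

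**Figure D4:**
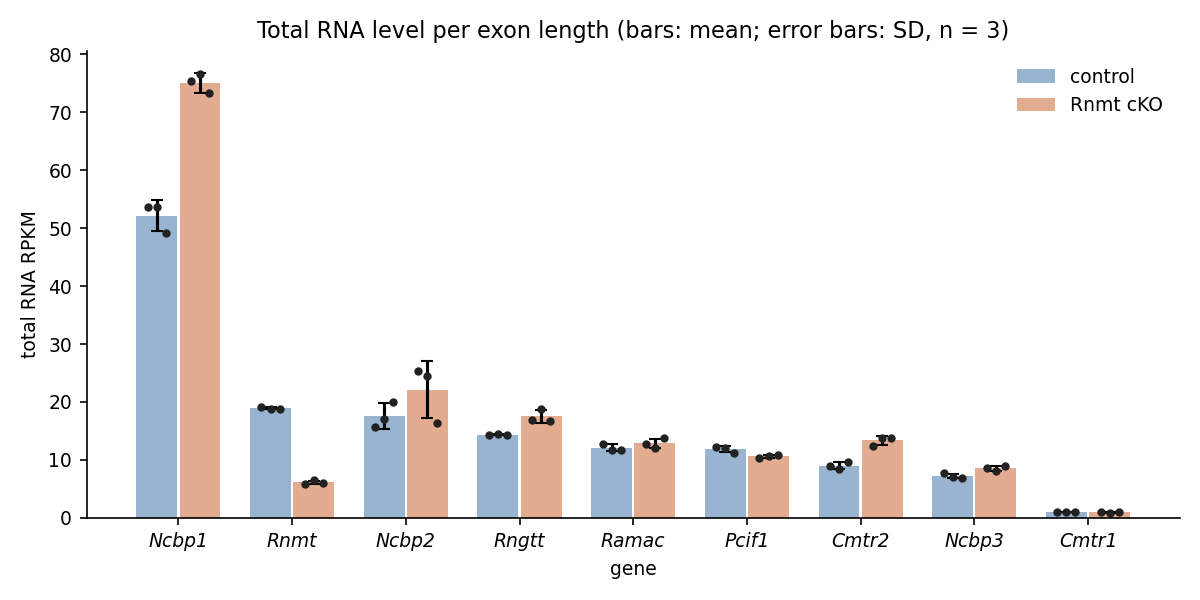
Total RNA level per kilobase of exon (RPKM) of the 9 genes in order of their control means, in control (blue) and *Rnmt* cKO (orange) cells. *Ramac* and *Cmtr1* are drawn at their counted values, and their positions in this order are not a placing. Bars are means of 3 libraries, error bars are SD and points are single libraries. *Ncbp1* is highest in both genotypes (52.1 and 75.1 RPKM) and *Rnmt* goes from 18.9 to 6.13 RPKM.

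The base at the start of a transcript is the base next to the cap, the one that CMTR1 and PCIF1 modify. RefSeq entries (GRCm38.p6) were used for 7 of the 9 genes, with 2 starts for *Pcif1*. No entry for *Ncbp2* was at hand. For *Rnmt*, the deleted gene, no entry was used, so the counts of starts below leave it out. The 30 bases from 20 before the start are shown for those of the 7 that passed a test, with the annotated start base in capitals. The libraries hold no measurement of the start.
Rngtt: agaaagggggcgggccctttGgggcggaag
Cmtr2: gaggagacgccacccccggaAgctgttccc
Pcif1, start before: ggtaccgacgcatgcgcagcGcggagtccc
Pcif1, start after: ccgagttccgctgcttgcgcAgatacagtt
Ncbp1: cctttctccggaagtctcctAagtcgtcgg
Ncbp3: ctaggcggcgggagtgagggGcgggctttc
All lie on the plus strand, in the order shown at chr4:33310291-33310320, chr8:110217940-110217969, chr2:164879348-164879377, chr2:164880032-164880061, chr4:46138491-46138520 and chr11:73047847-73047876. Of the 8 starts of the 7 genes, 5 were G, 3 were A and none was C or T, where 35.6% of 32851 annotated starts were G, 34.4% A, 16.3% C and 13.7% T. None began with C and 4 pyrimidines, the TOP form, as 2.51% of all starts did. The letters CGGAAG were searched on both strands of the 300 bases around each start. They occurred in 5 of the 8 entries (*Rngtt*, *Ramac*, *Cmtr1*, *Cmtr2* and *Ncbp1*) and in 16.9% of all entries. The letters were chosen after these sequences were seen, so these shares cannot test an enrichment.

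Of 72 further genes in 8 lists around cap synthesis, recognition and removal, all were tested in total RNA, where 12 fell (16.7%, against 28.0% of all genes tested) and 28 rose (38.9%, against 26.3%). Their median log2 change was 0.17, against -0.0037 over all genes. In RPF 8 of 71 fell (11.3%, against 15.7%) and 10 rose (14.1%, as over all genes), with a median of 0.04 against 0.0080. In TE 14 of 71 fell (19.7%, against 6.57%) and 2 rose (2.82%, against 3.24%), with a median of -0.09 against 0.04. The lists were chosen with results of these data known and their shares have no test. TE and total RNA are not independent here, because both use the same total RNA libraries. Genes of these lists that are named in brackets were named after their values were seen.

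Among the 13 genes of RNA polymerase II and the factors around it, 5 rose (*Cdk9*, *Ccnt1*, *Supt5*, *Supt6* and *Nelfa*) and 2 fell in total RNA (*Supt4a* and *Nelfb*), where 26.3% of all genes rose and 28.0% fell. In RPF 1 rose (*Ccnt1*, 14.1% of all genes) and 1 fell (*Nelfa*, 15.7%), and in TE 1 rose (*Nelfb*, 3.24%) and 4 fell (*Cdk9*, *Supt5*, *Supt6* and *Nelfa*, 6.57%). The list medians were -0.01 for total RNA and -0.02 for both RPF and TE. *Cdk9*, the kinase of P-TEFb, was at 30.2, 29.4 and 34.9 CPM in control total RNA and at 64.4, 67.1 and 44.5 CPM in *Rnmt* cKO. All *Rnmt* cKO libraries were above the controls, with *Rnmt* cKO 3 nearest to them. *Cdk9* rose by 0.89 in total RNA (SE 0.16, edgeR adjusted p = 0.0019) and fell by 0.82 in TE (SE 0.18, adjusted p = 0.013), and the TE call was lost without control 1 (-0.76, adjusted p = 0.084), control 2 (-0.83, adjusted p = 0.050) or *Rnmt* cKO 1 (-0.73, adjusted p = 0.077). *Supt4a*, a subunit of the elongation factor DSIF, fell by 0.37 in total RNA (SE 0.08, edgeR adjusted p = 0.0043). *Nelfb*, of the pausing factor NELF, rose by 0.34 in TE (SE 0.10, edgeR adjusted p = 0.044), a call that was lost with any library but *Rnmt* cKO 3 left out (adjusted p = 0.087 to 0.19) and under 4 of the other settings (adjusted p = 0.054 to 0.10).

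Among the 14 partners of the nuclear cap-binding complex, 6 rose and 3 fell (*Thoc5*, *Srrt* and *Thoc7*) in total RNA, 2 fell in RPF (*Alyref* and *Thoc5*), and 2 fell in TE (*Alyref* and *Thoc1*). The same shares of all genes apply, with 26.3% higher and 28.0% lower in total RNA, 15.7% lower in RPF and 6.57% lower in TE, and the list medians were 0.18, -0.03 and -0.11. *Alyref*, an mRNA export adaptor, was at 368, 364 and 342 CPM in control RPF and at 303, 282 and 267 CPM in *Rnmt* cKO, without overlap. Its TE fell by 0.43 (SE 0.10, edgeR adjusted p = 0.017), and the call was lost without control 1 (-0.44, adjusted p = 0.075) or *Rnmt* cKO 3 (-0.38, adjusted p = 0.053). *Thoc5*, of the THO export complex, fell by 0.48 in total RNA (SE 0.07, edgeR adjusted p = 5.8e-04). *Ctif*, a translation factor that binds NCBP1, was at 0.81 to 1.11 CPM in control total RNA and 1.29 to 2.53 CPM in *Rnmt* cKO. Only control 1 of the controls was above 1 CPM. The gene, 1 of the 6 counted as raised, thus met the filter on low counts through the *Rnmt* cKO libraries, where it was higher. With at least 10 counts asked in every library it was tested as well (0.91, edgeR adjusted p = 0.030). It rose by 0.91 (SE 0.30, edgeR adjusted p = 0.033), and the call was lost without control 1, 2 or 3 (1.03, 0.90 and 0.80, adjusted p = 0.055, 0.084 and 0.094) or *Rnmt* cKO 2 (0.60, adjusted p = 0.087), with DESeq2 (0.92, adjusted p = 0.064) and with the replicate block (0.88, adjusted p = 0.057).

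Among the 6 genes of cap trimethylation and its reader, 3 rose in total RNA (*Tgs1*, *Smn1* and *Gemin2*), 1 rose in RPF (*Smn1*) and 1 fell in TE (*Tgs1*), beside 26.3%, 14.1% and 6.57% of all genes. The list medians were 0.27, 0.10 and -0.14. *Smn1* and *Gemin2* belong to the SMN complex, which assembles small nuclear RNPs. *Tgs1*, which adds further methyl groups to the cap of small nuclear RNAs, was at 28.1, 28.8 and 33.3 CPM in control total RNA and at 61.6, 69.9 and 41.4 CPM in *Rnmt* cKO, again with *Rnmt* cKO 3 nearest to the controls. Its footprints were at 50.0 to 56.1 CPM in controls and at 55.4 to 55.6 CPM in *Rnmt* cKO. *Tgs1* rose by 0.94 in total RNA (SE 0.18, edgeR adjusted p = 0.0031) and fell by 0.90 in TE (SE 0.21, adjusted p = 0.019). The TE call was lost without control 1, control 2, *Rnmt* cKO 1 or *Rnmt* cKO 2 (-0.84, -0.92, -0.85 and -0.74, adjusted p = 0.10, 0.068, 0.087 and 0.058).

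Among the 12 cytoplasmic cap-binding proteins and their inhibitors, 6 rose and 1 fell (*Eif4e3*) in total RNA, 1 rose in RPF (*Larp1*), and 4 fell in TE (*Larp4*, *Larp1*, *Eif4ebp2* and *Eif3d*). Of all genes, 26.3% rose and 28.0% fell in total RNA, 14.1% rose in RPF and 6.57% fell in TE. The list medians, in the same order of comparisons, were 0.29, 0.03 and -0.35. The gene that rose most was *Larp4*, which is known to bind poly(A) tails and not the cap, at 93.2, 90.2 and 106 CPM in control total RNA and at 265, 322 and 244 CPM in *Rnmt* cKO. It rose by 1.52 (SE 0.11, edgeR adjusted p = 3.3e-05) and its TE fell by 1.28 (SE 0.15, adjusted p = 1.8e-04). *Eif4e3*, a variant of the cap-binding factor eIF4E, was at 20.0, 20.1 and 19.4 CPM in control total RNA and at 10.1, 8.10 and 11.6 CPM in *Rnmt* cKO. It fell by 0.99 (SE 0.13, edgeR adjusted p = 4.8e-04).

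Among the 11 genes that remove caps or decay uncapped RNA, 5 rose (*Dcp1a*, *Nudt16*, *Xrn2*, *Edc4* and *Dcp2*) and 2 fell in total RNA (*Dcp1b* and *Dcps*). In RPF 3 rose (*Dcp2*, *Nudt16* and *Nudt3*) and 5 fell (*Dcp1b*, *Xrn1*, *Dcps*, *Edc3* and *Xrn2*), and in TE 1 rose (*Dcp2*) and 2 fell (*Xrn2* and *Dcp1a*). The shares of all genes that rose and fell were 26.3% and 28.0% in total RNA, 14.1% and 15.7% in RPF and 3.24% and 6.57% in TE, and the list medians were 0.15, 0.05 and -0.09. The decapping cofactors *Dcp1a* and *Dcp1b* went in opposite directions. *Dcp1a* rose by 0.76 in total RNA (SE 0.05, edgeR adjusted p = 3.0e-05), from 90.0 ± 1.63 to 153 ± 6.65 CPM (SD, n = 3). *Dcp1b* fell by 1.16 (SE 0.12, edgeR adjusted p = 1.3e-04), from 14.6 ± 0.41 to 6.49 ± 0.82 CPM (SD, n = 3). *Xrn2*, the nuclear exonuclease, fell by 0.72 in TE (SE 0.08, edgeR adjusted p = 9.1e-05). *Dcp2*, the decapping enzyme, rose by 0.48 in TE (SE 0.10, edgeR adjusted p = 0.0096), a call lost without control 3 (0.40, adjusted p = 0.054) or *Rnmt* cKO 1 (0.40, adjusted p = 0.074).

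**Figure D5:**
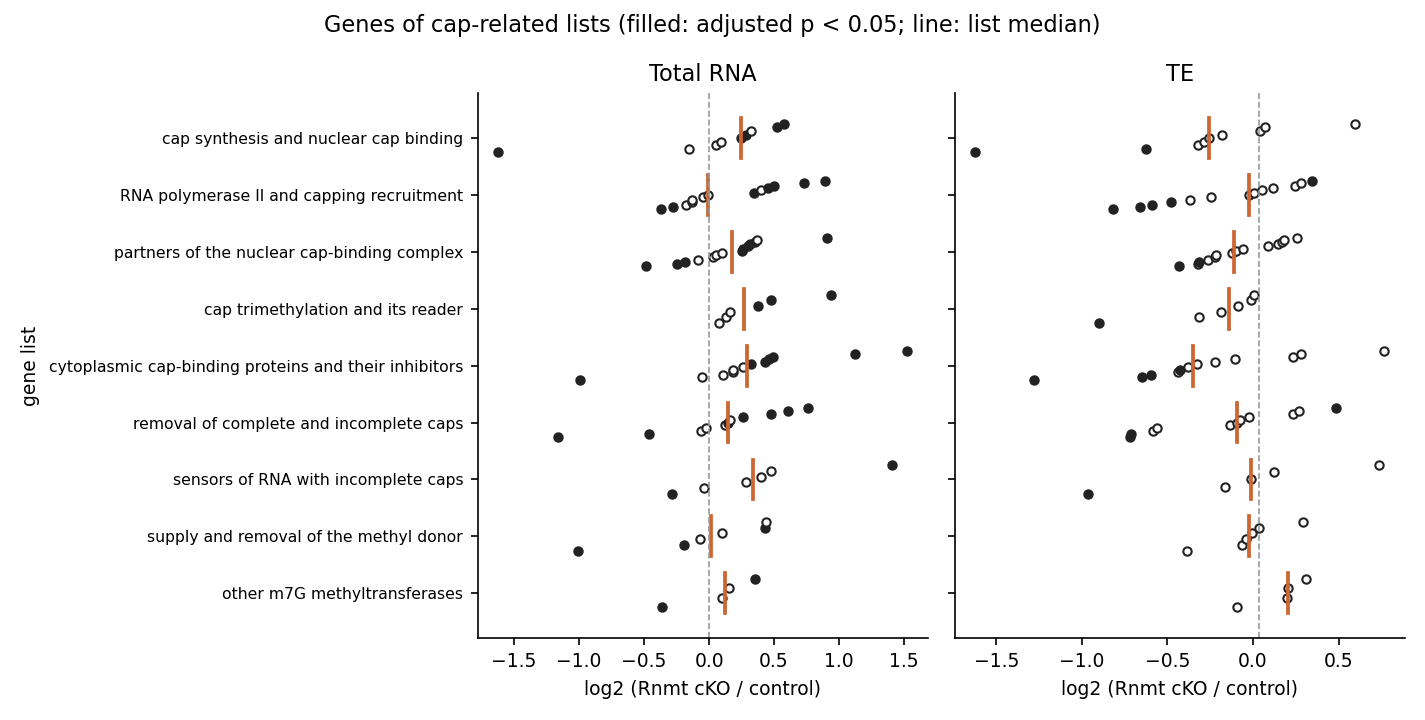
Log2 change of *Rnmt* cKO against control in total RNA (left) and TE (right) for every tested gene of the cap-related lists, with filled points for an adjusted p under 0.05, orange lines for the list medians and a dashed line for the median of all genes tested. The cytoplasmic cap-binding list has its median at 0.29 in total RNA and at -0.35 in TE.

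Among the 6 sensors of RNA with incomplete caps and their adaptor, 1 rose (*Ifih1*) and 1 fell (*Mavs*) in total RNA, 1 rose in RPF (*Dhx58*) and 1 fell in TE (*Ifih1*), with *Ifit3* not tested in RPF or TE. In this list and the next pair, single genes stand beside 26.3% of all genes higher and 28.0% lower in total RNA, 14.1% higher in RPF and 6.57% lower in TE. *Ifih1* (MDA5), which is known to sense long double-stranded RNA and not the cap itself, was at 14.9, 13.7 and 16.9 CPM in control total RNA and at 43.8, 31.8 and 45.1 CPM in *Rnmt* cKO. It rose by 1.41 (SE 0.15, edgeR adjusted p = 1.6e-04), and its TE fell by 0.96 (SE 0.26, adjusted p = 0.031), a call lost without control 1, control 3 or *Rnmt* cKO 1 (-0.83, -0.98 and -0.92, adjusted p = 0.16, 0.074 and 0.13). The adaptor *Mavs* fell by 0.29 in total RNA (SE 0.10, edgeR adjusted p = 0.035), which was lost with any library but *Rnmt* cKO 2 left out (adjusted p = 0.067 to 0.12), with DESeq2, without TMM, with no filter on low counts and with the replicate block (adjusted p = 0.085, 0.077, 0.076 and 0.084). Of the 6 genes that supply and clear the methyl donor, 1 rose (*Ahcyl2*) and 2 fell (*Ahcy* and *Mat2b*) in total RNA, 1 rose in RPF (*Ahcyl2*) and none passed in TE. *Ahcy*, the hydrolase of S-adenosylhomocysteine, was at 33.6, 33.5 and 29.4 CPM in control total RNA and at 18.0, 14.8 and 15.4 CPM in *Rnmt* cKO. It fell by 1.01 (SE 0.10, edgeR adjusted p = 1.3e-04), and its relative *Ahcyl2* rose by 0.43 (SE 0.07, adjusted p = 0.0017). Of the 4 genes of other m7G methyltransferases, which act on tRNA and rRNA, 1 rose (*Trmt112*) and 1 fell (*Mettl1*) in total RNA, 2 rose in RPF (*Wdr4* and *Trmt112*) and none passed in TE. For both of these lists the TE count of 0 from edgeR was also 0 at an unadjusted p under 0.05 and with DESeq2. *Mettl1* fell by 0.36 in total RNA (SE 0.08, edgeR adjusted p = 0.0052), and *Trmt112*, a subunit shared by several methyltransferases, rose by 0.35 (SE 0.12, adjusted p = 0.041), which was lost with any library but *Rnmt* cKO 2 left out (adjusted p = 0.056 to 0.12), with the replicate block (0.35, adjusted p = 0.057) and with the counts of both strands (0.21, adjusted p = 0.38).

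The genes most like *Rnmt* across the 12 libraries, by Pearson's r of log2 CPM after the mean of each kind was removed and among the 6609 genes whose mean log2 CPM reached 4 in both kinds, were *Ralgapa1* (r = 0.99), *Cnp* (r = 0.99) and *Cnn2* (r = 0.98). Their changes were smaller than those of *Rnmt*, with log2 changes of -0.27, -0.74 and -0.62 in total RNA and of -0.49, -1.15 and -1.14 in RPF. Those most like *Ramac* were *Fgfr1op* (r = 0.94), *Cdc42* (r = 0.82) and *Fbxw2* (r = 0.81). The libraries share depth and genotype groups, so these values are descriptions of likeness in 12 libraries.

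The cells carried the markers of CD4 T cells, whose 6 genes summed to 2762 to 3039 CPM in control and 2146 to 2493 CPM in *Rnmt* cKO total RNA. *Cd28* was the most abundant (1096 and 1088 CPM), none was at 0, and 3 of 6 (*Cd3d*, *Cd3g* and *Cd5*) fell in total RNA (28.0% of all genes) and in RPF (15.7%). Markers of B cells were present at low levels that differed between libraries. Their 5 genes summed to 9.55, 6.04 and 33.7 CPM in control total RNA and to 86.4, 104 and 19.2 CPM in *Rnmt* cKO, with *Ms4a1* as the most abundant gene (6.05 and 27.5 CPM) and none at 0. *Rnmt* cKO 3 thus lay under control 3, and *Ms4a1* and *Cd79b*, 2 of the 4 tested, passed as higher in *Rnmt* cKO (26.3% of all genes). In RPF the sums were 11.7, 8.59 and 41.2 CPM in controls and 128, 141 and 22.1 CPM in *Rnmt* cKO. The CD8 markers *Cd8a* and *Cd8b1* summed to 21.4 to 41.7 CPM in control and 9.85 to 26.4 CPM in *Rnmt* cKO total RNA and did not pass. Myeloid markers summed to 1.02 to 2.51 CPM over the 6 libraries of total RNA, with *Cd68* as the most abundant, and *Csf1r* of that list was at 0 in every total RNA control. In RPF they summed to 4.41, 4.22 and 3.55 CPM in controls and to 2.93, 2.93 and 2.46 CPM in *Rnmt* cKO. Every *Rnmt* cKO library thus lay below every control there, and *Cd68*, the only one tested, did not pass (-0.61, edgeR adjusted p = 0.14). The 4 NK cell markers were all under the filter on low counts and were not tested. They summed to 0.32, 0.26 and 0.27 CPM in control total RNA and to 1.83, 1.60 and 1.12 CPM in *Rnmt* cKO, and to 0, 0.15 and 0.61 CPM in control RPF and 1.64, 2.25 and 1.48 CPM in RPF of *Rnmt* cKO. Every *Rnmt* cKO library thus lay above every control in both kinds, at low levels. *Klre1* was the most abundant in total RNA (0.14 and 0.59 CPM), none was at 0 there, and in RPF *Klra8* was at 0 in both genotypes and *Klrb1c* in controls. The cells had been purified before activation with a kit for naive CD4 T cells, a kind of kit made to remove B cells. In *Rnmt* cKO total RNA, the library with the fewest B cell reads, *Rnmt* cKO 3, also had the lowest of the 3 values for *Ncbp1*, *Rngtt* and *Ncbp2*. That library had the highest value for *Ncbp3* (109 CPM) and, by a small margin over *Rnmt* cKO 2, for *Cmtr2* (49.12 against 49.06 CPM). Of the genes that rose in total RNA, it was the lowest *Rnmt* cKO library for 2 of the 4 members, for 14 of the 28 other cap-related genes (*Cdk9* and *Tgs1* among them) and for 43.6% of all 3024. In that library *Ncbp2*, at 36.2 CPM, lay inside the range of the controls, and *Ncbp1* (221 CPM) and *Rngtt* (69.5 CPM) lay above it. The part of B cells and of NK cells in these results was not tested.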

How the data were processed

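The authors used Cutadapt for adapters and Bowtie to filter rRNA and tRNA reads, and STAR 2.5.2b both to align what remained (mm10, GENCODE vM12) and to count uniquely placed reads. They deposited raw counts per gene for each of the 12 libraries, and a table of 10126 genes with normalized signal values per library beside their own fold changes and p-values, which were not used. The stranded counts that gave those signal values in 1 ratio per library, for 100% of genes within a tolerance of 1e-06, were analysed. The 4 totals that name no gene were left out, among them multimapping (22.9 to 31.1% of reads) and ambiguous reads (1.17 to 1.48%). Positions, strands and lengths came from GENCODE vM21, of the same build, and copies of the genes were found with blastn (at least 95% identity).

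Genes above 1 CPM in 3 or more of 6 libraries of a kind were compared with TMM and the quasi-likelihood test of edgeR 4.0.16 in R 4.3.3, with Benjamini-Hochberg adjustment and a threshold of 0.05. For TE, genotype and library kind interacted in 1 model of 12 libraries. RPKM and log2 ratios (prior count 0.5) are descriptions. RiboDiff was not used here. The fit was tested on simulated data. With 3 against 3 libraries an exact permutation test cannot go below 0.1, so none is given. The 9 genes and the lists were chosen with earlier results of these data known. Named are the 9 genes, the called gene with the largest rise and fall in total RNA and in TE of each list, the 3 genes most like *Rnmt* and *Ramac*, markers and, outside that rule and after their values were seen, the genes in brackets. Alternatives were DESeq2 1.42.0, plain library sizes without TMM, edgeR's exact test, no filter, at least 10 counts in every library, both strands, the genes of the authors' table only, each library left out and replicate blocks.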

Additional observations from a re-analysis of the deposited data

Results flagged for a closer look

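*Rnmt* and *Ncbp1* had genotype effects that differed between RPF and total RNA by the interaction test. For *Rnmt* the difference was -1.62 on the log2 scale, with falls in both kinds, and for *Ncbp1* it was -0.63, with a rise in total RNA and overlapping groups in RPF. Reads on the strand opposite to *Pcif1*, which the comparisons do not use, were at 13.4, 13.3 and 15.1 CPM in control total RNA and at 17.3, 17.6 and 17.5 CPM in *Rnmt* cKO (mean 17.5 CPM), with every *Rnmt* cKO library above every control. In RPF those groups overlapped, at 6.20, 7.99 and 11.2 CPM in controls and 8.43, 7.32 and 12.1 CPM in *Rnmt* cKO. *Zfp335* overlaps *Pcif1* on that strand. Opposite to *Cmtr1*, where *Ccdc167* overlaps it, reads were more numerous than those of *Cmtr1* in controls and lay lower in every *Rnmt* cKO library than in every control, with means of 7.76 and 4.19 CPM in total RNA and 11.2 and 6.44 CPM in RPF.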

How the results depend on the processing

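Of 377 log2 changes of the 9 genes under the alternatives, 357 kept their direction and their side of the threshold, 4 no longer passed, 3 passed only under the alternative and 13 changed sign. All that changed sign were values that did not pass. Of 322 log2 changes of the named genes of the other lists, 277 kept their direction and call and 45 no longer passed, 12 of them outside the leave-one-out fits (*Mavs*, *Ctif*, *Trmt112* and *Nelfb*). *Ncbp3* in RPF was 0.017 without TMM, 0.0030 with DESeq2 and 0.0038 with only the genes of the authors' table. With 1 library left out, the ranges that crossed 0 were -0.032 to 0.043 for *Ncbp3*, -0.27 to 0.23 for *Ramac* and -0.14 to 0.051 for *Rngtt* in RPF, and -0.39 to 0.10 for *Ramac*, -0.022 to 0.18 for *Cmtr2* and -0.13 to 0.19 for *Ncbp2* in TE. *Ncbp2* in total RNA passed with no filter on low counts (0.31, edgeR adjusted p = 0.0059). With 1 library left out, 1 to 2 of the 9 genes fell in total RNA and 1 to 2 rose in RPF. Of the other cap-related genes, 4 to 10 then rose in RPF, 7 to 16 fell in TE and 0 to 2 rose in TE. Over all genes, 415 to 812 then fell and 122 to 367 rose in TE. With both strands counted, 6 of the other cap-related genes rose in RPF, and 1 rose in TE without TMM, with no filter or with only the genes of the authors' table. With no filter 214 of all genes rose in TE. The causes were not tested.

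Same-numbered control and *Rnmt* cKO libraries did not deviate together (correlations from -0.57 to 0.15, own number best in 1 of 6), so the numbers do not pair the genotypes. With the replicate block, 2751 genes fell and 2455 rose in total RNA, 1 of the other cap-related genes rose in TE, the calls of *Mavs*, *Ctif* and *Trmt112* in total RNA and *Nelfb* in TE were lost, and no call of the 9 genes changed. Same-numbered total RNA and RPF libraries of a genotype correlated at 0.097 to 0.37, each best with its own number (6 of 6). The labels do not say whether they come from the same animal. With a block on these numbers 777 genes fell and 426 rose in TE, and the calls of the 9 genes were as before. Footprint counts were low for *Cmtr1* (17 to 46 a library), *Ramac* (60 to 242) and, in *Rnmt* cKO, *Rnmt* (90, 106 and 39), which limits the precision of their RPF and TE values.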
